A study of Mus musculus with 7 samples.

Results

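The 4 loci described here hold Gata6, Sox17, T (also called Brachyury) and Foxa2, which encode transcription factors of the endoderm and mesoderm. They were examined in ATAC-seq data from mouse stem cells and neural progenitors, to see whether the regions of other lineages' genes are open in either cell type. Members were all peaks that overlapped 1 of 4 fixed windows of the mm9 build by at least 1 bp. The windows were chr18:11030000-11110000 for Gata6, chr1:4460000-4510000 for Sox17, chr17:8600000-8660000 for T and chr2:147840000-147900000 for Foxa2. Of 644207 peaks in the 7 lists, 101 lay in these windows.

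ATAC-seq marks open chromatin by where the Tn5 transposase inserts adapters. Of the 7 samples, 3 came from female 129S1 x Cast F1 lines. They were neural progenitor cells (NPC) of line sgdgb2 carrying deltaFT, an alteration the labels do not spell out, wild-type NPC of line C2 and wild-type embryonic stem cells (mESC) of line F1216. NPC were grown in N2/B27 medium with FGF and EGF, and mESC in serum with LIF on gelatin. The other 4 samples were male mESC called TXY, whose own Xist locus carries a doxycycline-inducible construct. Xist is the RNA that silences an X chromosome. In deltaRepA cells the construct lacked the functional RepA region, and in wild-type cells it was intact. Each genotype was taken with 2 ug/mL doxycycline for 48 hours (plus dox) and without it (no dox), so all 4 TXY samples carry the inducible construct. Each female group is 1 cell line, so genotype or cell type cannot be told apart from line. Each group is 1 sample, so differences between groups have no replicate check and no test was made. Samples were grouped by title. Another label of the mESC sample names neural progenitors, against its title and medium, and the plus-dox descriptions point to no-dox files.

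Gata6 is a zinc-finger factor of the primitive endoderm and of later endoderm and heart. Sox17 is an HMG-box factor that directs endoderm formation. T is the founding T-box factor and marks the primitive streak and early mesoderm. Foxa2 is a forkhead factor of the definitive endoderm, node and floor plate, and forkhead factors of its class can bind DNA within compacted chromatin. In undifferentiated stem cells the start sites of such genes are typically rich in CpG and bound by Polycomb, with little or no transcription. Floor plate is a ventral structure of the neural tube, so Foxa2 also has a role in neural tissue.

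The start-site sequences below show the base composition of the 2 members with an entry in the RefSeq promoter table of build GRCm38.p6, T and Foxa2. Each runs 5′ to 3′ on the gene's strand from 250 bases before the start to 50 after it. Capitals mark the letters CACCT or the reverse complement AGGTG, part of the site that T-box factors bind. The T sequence covers chr17:8434173-8434472 on the plus strand, and the sequence of the most upstream Foxa2 start covers chr2:148046920-148047219 on the minus strand.
T: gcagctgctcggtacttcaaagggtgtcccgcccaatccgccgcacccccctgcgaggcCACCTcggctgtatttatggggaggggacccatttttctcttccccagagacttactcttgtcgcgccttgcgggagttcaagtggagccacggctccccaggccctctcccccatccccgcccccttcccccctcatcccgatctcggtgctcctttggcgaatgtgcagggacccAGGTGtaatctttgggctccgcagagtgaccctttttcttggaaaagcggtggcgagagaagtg
Foxa2: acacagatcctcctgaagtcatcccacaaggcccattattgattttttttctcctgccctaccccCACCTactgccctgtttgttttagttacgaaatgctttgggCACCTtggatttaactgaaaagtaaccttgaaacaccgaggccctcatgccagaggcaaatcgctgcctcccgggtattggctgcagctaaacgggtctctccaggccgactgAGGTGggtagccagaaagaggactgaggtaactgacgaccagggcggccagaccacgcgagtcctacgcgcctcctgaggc
The T sequence was 61.7% G or C with 17 CpG and an observed over expected CpG ratio of 0.607. The Foxa2 sequence was 54.3% G or C with 12 CpG and a ratio of 0.548. The medians over 32851 promoters of the table were 52.7% and 0.384. Of the other Foxa2 starts, one held 23 CpG at 64.0% G or C and a ratio of 0.767, and one held 13 CpG at 51.7% and a ratio of 0.680.

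Core letters of the sites bound by the 4 factor families were searched on both strands of these promoters, with no overlapping matches in the printed sequences. CACCT matched 2 times in the T promoter and 3 times in the printed Foxa2 promoter, and 51.9% of all promoters held it. GATAA, the core of GATA factor sites, matched once in 1 of the other Foxa2 promoters and is present in 25.4% of all promoters. GTAAACA, a forkhead sequence, and ACAAT, a SOX sequence, matched in none of the 4 promoters and are present in 3.65% and 31% of all promoters. Peaks in the files are in mm9 and these promoters in GRCm38.p6. Peaks were therefore placed by window and not on start sites, and their distance to a start was not analysed here.

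For each female line the main list was that of peaks found reproducibly in 2 libraries, by irreproducible discovery rate (IDR, below 0.05). These lists held 37270 peaks in NPC deltaFT, 41126 in NPC wild type and 28907 in mESC. Their autosomal peaks held 10845382 reads in NPC deltaFT, 10724324 in NPC wild type and 6176798 in mESC. The TXY lists held 125498 to 142526 peaks, from merged libraries. Lists of 70914 to 101230 peaks were also given for each of the 6 female libraries. Cell type markers were not analysed here, since gene positions in mm9 were not used.

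By the IDR lists, the 4 windows held few peaks in NPC and more in mESC. The NPC deltaFT IDR list held 1 peak in the windows, at Foxa2. The NPC wild-type list held 2, at Gata6 and Foxa2. The mESC list held 7, of which 2 were at Sox17, 1 at T and 4 at Foxa2. Sox17 and T had no IDR peak in either NPC line, and Gata6 had none in mESC or in NPC deltaFT. Per 100 kb, the windows held 0.4 peaks in NPC deltaFT, against 1.50 over all autosomes of that list. NPC wild type had 0.8 peaks per 100 kb in the windows and 1.65 over autosomes. In mESC the order turned round, with 2.8 in the windows and 1.14 over autosomes. The mESC list had the fewest reads in autosomal peaks of the 3 lines, a number that is also lower in a shorter list. The part of sequencing depth in these counts was not tested.

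**Figure D1:**
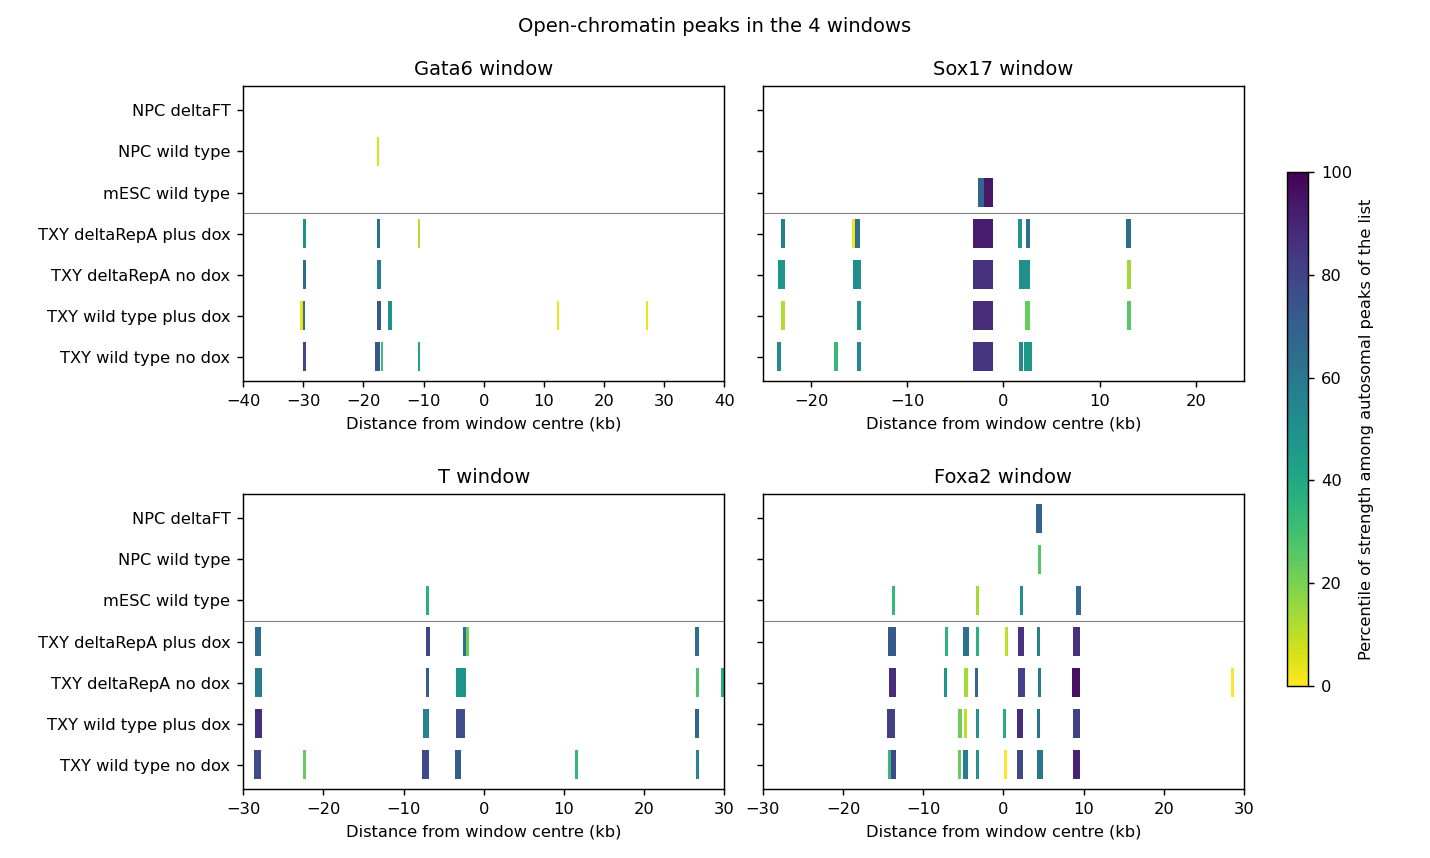
Peaks in the 4 windows by sample, with distance from the window centre in kb on the x axis and one row per list. Colour gives the percentile of the peak among autosomal peaks of its own list, by reads in the 3 female lists and by −log10 p in the 4 TXY lists. Peaks under 0.4 kb are drawn 0.4 kb wide. The NPC rows hold 1 and 2 peaks, the mESC row 7 and the TXY rows 20 to 25.

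Summed over the windows, NPC wild type had 158 reads in 601 bp of peaks and mESC 1417 reads in 3296 bp. This is 14.7 reads per 1000000 reads in autosomal peaks (RPM; 95% Poisson interval 12.5 to 17.2) in NPC wild type and 229 RPM (218 to 242) in mESC. The log2 ratio was -3.96 (-4.21 to -3.72). Such a sum moves with how much was called. Within peaks there were 0.263 reads per bp in NPC wild type and 0.430 in mESC, a smaller difference. NPC deltaFT had 317 reads in 669 bp, or 29.2 RPM (26.1 to 32.6), and 0.474 reads per bp. In bulk cells, a site open in fewer cells and one less open per cell cannot be told apart. All intervals cover counting error only, because each group is 1 sample. PCR copies cannot be told from separate molecules, so intervals on reads may be too narrow even for that. The sources used here do not say whether a count covers 1 library or both.

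Foxa2 was the only window with an IDR peak in all 3 female lines, and by these lists NPC and mESC were open at different places in it. In NPC deltaFT the peak was chr2:147874115-147874783, with 317 reads, at the 68.6th percentile of autosomal peaks. In NPC wild type it was chr2:147874266-147874519, with 104 reads or 9.70 RPM (7.92 to 11.8), at the 26.6th percentile. Both lie about 4.4 kb right of the window centre. The 4 mESC peaks lay on either side of that site. They were chr2:147856042-147856447 with 110 reads, chr2:147866574-147866772 with 72, chr2:147872062-147872424 with 154 and chr2:147879083-147879647 with 213. In RPM the last was 34.5 (30.0 to 39.4), the others 17.8, 11.7 and 24.9. The mESC peaks ranked from the 13.9th to the 65.5th percentile of reads among autosomal mESC peaks. A gap of 1.69 kb separated the NPC deltaFT peak from the mESC peak on its left. On its right, 4.56 kb separated the NPC wild-type peak from the next mESC peak.

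The library lists, called on 1 library each, gave a different picture of that NPC site. All 4 NPC libraries and both mESC libraries listed a peak there, as did all 4 TXY lists, so it was in 12 of the 13 lists and missing only from the mESC IDR list. The −log10 p was 21.5 and 12.5 in the NPC deltaFT libraries, 12.4 and 14.2 in the NPC wild-type libraries, and 6.25 and 5.02 in the mESC libraries. Within their own lists these were at the 84.8th and 68.6th percentile in NPC deltaFT, the 65.9th and 70.5th in NPC wild type and the 38.8th and 12.7th in mESC. The site was therefore listed in stem cells too, below the median rank of the female mESC library lists. In the 4 TXY lists it was above the median rank, at the 55.6th to the 61.6th percentile. In the other direction, none of the 4 mESC IDR peaks overlapped an NPC peak of any list. NPC wild-type library 1 listed a peak beside the one 2.2 kb right of the centre, with a −log10 p of 6.28, without overlap between them.

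**Figure D2:**
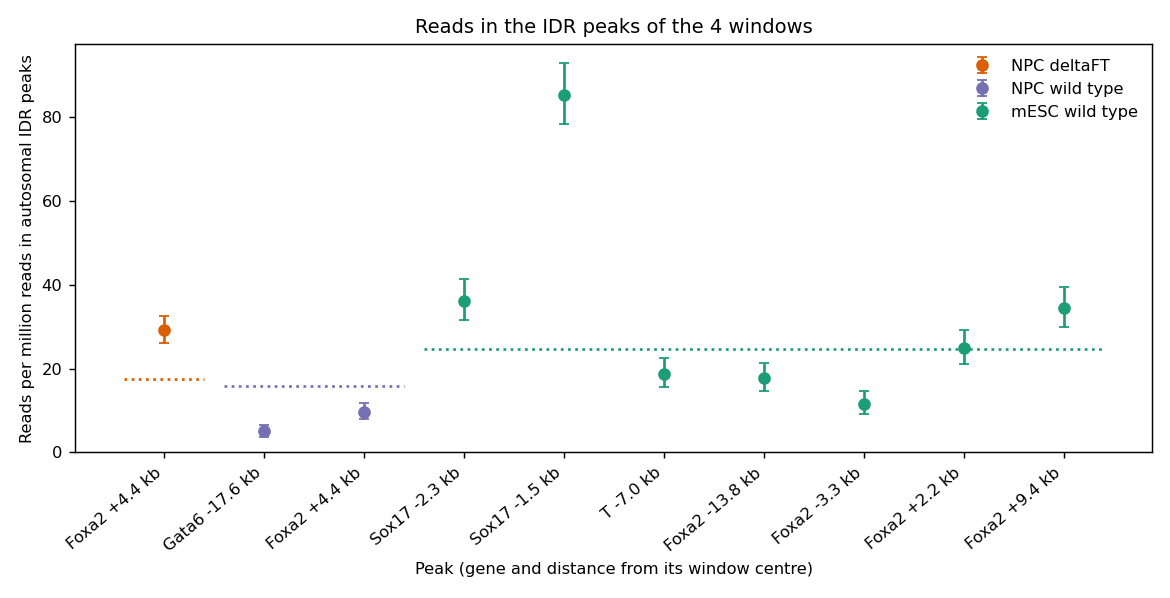
Reads per 1000000 reads in autosomal IDR peaks for each of the 10 IDR peaks in the windows, by line, named by gene and distance from the window centre. Error bars are exact 95% Poisson intervals and dotted lines mark the median autosomal peak of the list. The mESC Sox17 peak at -1.5 kb stands highest at 85.5, and both NPC wild-type peaks lie below their list's median.

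Sox17 carried the 2 mESC peaks with the most reads in the 4 windows and had none in either NPC IDR list. The peak chr1:4483022-4483904 had 528 reads or 85.5 RPM (78.3 to 93.1), the 93.5th percentile of autosomal mESC peaks. Its width of 883 bp was at the 96.0th percentile. Its neighbour chr1:4482401-4482944 had 224 reads or 36.3 RPM (31.7 to 41.3), the 67.7th percentile. Together they gave 122 RPM (113 to 131) over 1427 bp. In all 4 TXY lists 1 broad peak covered both, 2078 bp wide with deltaRepA plus dox and 2113 bp with deltaRepA no dox. It was 2056 bp wide with wild type plus dox and 2066 bp with wild type no dox, wider than at least 99.9% of the autosomal peaks of its list in each.

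The Sox17 site was also listed in 3 of the 4 NPC libraries, at low ranks. Both NPC deltaFT libraries listed a peak within it, with −log10 p of up to 5.99 and 6.95, and NPC wild-type library 1 listed one with 5.21. These were at the 22.9th, 31.1st and 11.5th percentile of their lists. NPC wild-type library 2 listed none in the whole Sox17 window. The mESC libraries gave 13.1 and 9.96, at the 84.6th and 66.2nd percentile, at chr1:4483347-4483904 and chr1:4483035-4483885. The 3 NPC values above are from chr1:4482228-4482432, chr1:4482105-4482335 and chr1:4482261-4482431, which overlap neither of these. Of the mESC libraries, library 2 alone overlapped those 3, at chr1:4482094-4482281 with 9.52. In the stronger mESC stretch only NPC deltaFT library 2 listed a peak, chr1:4483425-4483575 with 5.65. The strongest NPC and mESC peaks thus lay at different places within the site. No other Sox17 site appeared in an NPC list, and 5 of the 6 Sox17 sites were in stem cell lists alone.

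T had a single IDR peak, in mESC. It was chr17:8622830-8623165, 7.0 kb left of the window centre, with 116 reads or 18.8 RPM (15.5 to 22.5), the 36.0th percentile. Its −log10 p was 9.42 and 7.35 in the mESC libraries, and none of the 4 NPC libraries listed the site. All 4 TXY lists held it, with 10.7 in deltaRepA plus dox, 8.63 in deltaRepA no dox, 5.77 in wild type plus dox and 13.7 in wild type no dox.

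The right part of the T window held sites of NPC libraries that did not reach an IDR list. At chr17:8640632-8640896 the −log10 p was 6.75 and 13.97 in the NPC deltaFT libraries and 16.5 in NPC wild-type library 2. The last value was at the 76.2nd percentile of its list. No mESC or TXY list held this site. NPC wild-type library 1 listed no peak in the whole T window. At chr17:8649896-8650153 the same 3 NPC libraries had weaker peaks, with 4.51, 6.03 and 4.73, and again no stem cell list held the site. At chr17:8656379-8656795 they had 9.19, 7.02 and 7.05, both mESC libraries had 4.19 and 6.28, and all 4 TXY lists held the site.

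Of the IDR lists, that of NPC wild type was the only one with a Gata6 peak, and the peak was weak. It lay at chr18:11052177-11052523 and had 54 reads or 5.04 RPM (3.78 to 6.57), the 5.67th percentile of autosomal peaks, and an IDR of 0.0430, close to the limit of 0.05. Per bp it had 0.156 reads, lower than all but 0.262% of those peaks. Its −log10 p was 4.16 and 4.45 in the 2 libraries. None of its reads was given to an allele. Yet the site around it, 17.6 kb left of the window centre, was listed in all 6 female libraries and in all 4 TXY lists, and so in 11 of the 13 lists. The strongest −log10 p there was 13.8 and 5.37 in the NPC deltaFT libraries, 4.16 and 6.48 in the NPC wild-type libraries, and 4.53 and 11.9 in the mESC libraries. The peaks of these libraries lay at partly different places within the site, which spans 11051918 to 11052888.

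A second Gata6 site, 29.8 kb left of the centre, was listed in stem cells and in no NPC list. It had a −log10 p of 10.4 and 8.08 in the mESC libraries, and of 5.51 in TXY deltaRepA plus dox, 7.50 in deltaRepA no dox, 7.19 in wild type plus dox and 14.8 in wild type no dox. No mESC IDR peak was given for it. All 8 Gata6 sites were in a TXY list. Of them 5 were in 1 of the 4 TXY lists, and 3 were in 1 list of the 13.

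**Figure D3:**
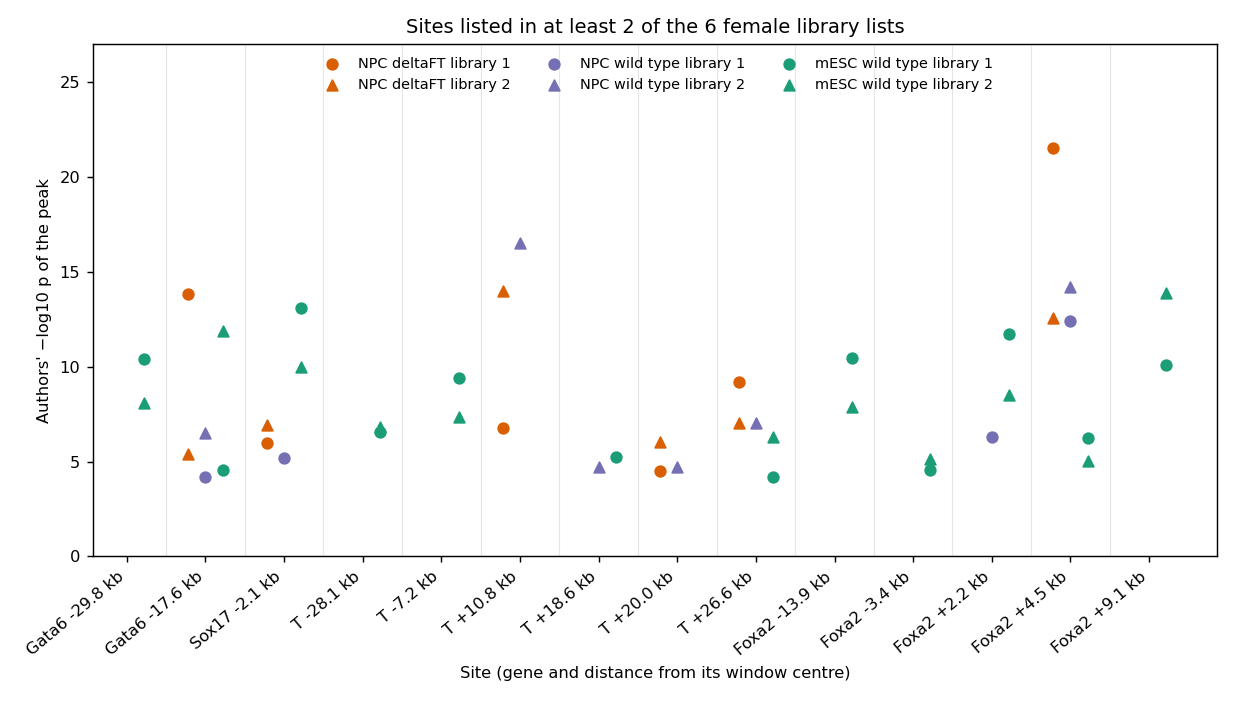
The authors' −log10 p of the strongest peak at the 14 sites listed in at least 2 of the 6 female libraries, with sites on the x axis by gene and distance from the window centre. Circles are library 1 and triangles library 2, and a missing symbol means that no peak was listed. Values rise with depth and are set side by side within a site, not compared between lists. The Foxa2 site at +4.5 kb and the Gata6 site at -17.6 kb carry all 6 symbols, and 2 T sites, one of them at +10.8 kb, carry NPC symbols alone.

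Overlapping peaks of the 13 lists were joined into 38 sites, 8 at Gata6, 6 at Sox17, 12 at T and 12 at Foxa2. Such a site can chain peaks that do not overlap each other. Of these, 15 were in at least 1 female mESC list and 13 in at least 1 NPC list, with 6 in both. A stem cell list, female or TXY, held 25 sites that no NPC list held, and NPC lists held 4 sites that no stem cell list held, 2 at T and 2 at Foxa2. There were more stem cell lists, and the TXY lists were the longest, so these counts are not on an equal footing. Both Foxa2 sites held by NPC lists alone were peaks of NPC deltaFT library 1 only, with a −log10 p of 5.39 and 7.01. The second, chr2:147873927-147874026, lay just left of the Foxa2 site found in 12 of the 13 lists. Of all 38 sites, 12 were in 1 list only. In the library lists the NPC deltaFT windows held 9 and 9 peaks, NPC wild type 5 and 10, and mESC 19 and 14. Per 100 kb this was 3.6 and 3.6 in NPC deltaFT, against 3.46 and 2.91 over autosomes, and 2 and 4 in NPC wild type, against 3.32 and 3.90. In mESC it was 7.6 and 5.6, against 2.95 and 2.65. The low density of window peaks in the NPC IDR lists was thus seen in 1 of the 4 NPC library lists, that of wild-type library 1, whereas the high density in mESC was seen in both kinds of list. Most NPC library peaks in the windows were weak, with 2 of 9, 3 of 9, 1 of 5 and 2 of 10 above the autosomal median −log10 p of their list. In mESC these were 8 of 19 and 7 of 14.

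Peaks were then set against every list of the other cell type, IDR or library. Of the 2 NPC wild-type IDR peaks in the windows, 0 lacked a peak in all mESC lists, where 52.5% of autosomal NPC wild-type peaks did. Of the 7 mESC peaks, 6 lacked a peak in all NPC wild-type lists, against 41.1% of autosomal mESC peaks, which is 85.7% (exact Clopper-Pearson 95% interval 42.1% to 99.6%). The exception was the weaker Sox17 peak, which met a peak of NPC wild-type library 1, chr1:4482261-4482431, only at its left end. With an overlap of at least 50% of the shorter peak, all 7 lacked a peak. Against the NPC deltaFT lists 5 of 7 mESC peaks were lacking, where 40.1% of autosomal mESC peaks were, or 71.4% (29.0% to 96.3%). The T peak and all 4 Foxa2 peaks were the 5. Both intervals treat neighbouring peaks of a list as independent, although 4 of the 7 lay in the Foxa2 window and 2 in the Sox17 window. No window peak of the NPC wild-type IDR list overlapped one of the mESC IDR list, so no ratio of reads could be formed between the cell types at a matched peak.

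The NPC lines were compared with each other, deltaFT against wild type. The 1 NPC deltaFT peak was found in the NPC wild-type lists, so 0 of 1 was lacking, against 5.53% of autosomal NPC deltaFT peaks. Of the 2 NPC wild-type peaks 0 were lacking in the NPC deltaFT lists, against 10.6% of autosomal peaks. At the matched Foxa2 peak, NPC deltaFT had 29.2 RPM and NPC wild type 9.70 RPM, a ratio of 3.01 (2.41 to 3.80) or 1.59 on the log2 scale. That 1 of 1 peak was at least 2-fold higher in NPC deltaFT, where 8.32% of 26001 matched autosomal peaks were. The peaks differed in width, 669 bp in NPC deltaFT and 254 bp in NPC wild type. Per bp the ratio was 1.14, or 0.19 on the log2 scale, under the limit of 2-fold. Both NPC wild-type libraries listed a further peak to the right, at 147874586 to 147874806 in library 1 and 147874597 to 147874767 in library 2. The wild-type IDR peak leaves that stretch out and the NPC deltaFT IDR peak takes in most of it.

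Reads that could be given to 1 of the parental alleles were close to even at most peaks. Alleles are named by column order, since no strain is given for them. At Foxa2, NPC deltaFT had 74 first-listed and 89 second-listed reads, a first-listed share of 45.4% (37.6% to 53.4%), against 48.9% over autosomes. NPC wild type had 29 and 30 there, or 49.2% (35.9% to 62.5%), against 50.4%. Neither interval left out the autosomal share, which is 0 of 1 peak in each line, where 30.0% of autosomal peaks did in NPC deltaFT and 32.3% in NPC wild type. In mESC the interval of 1 of 6 peaks left out the autosomal share of 47.9%, where 28.8% of autosomal peaks did. That was the T peak, with 6 first-listed and 26 second-listed reads, or 18.8% (7.21% to 36.4%). The Sox17 peaks had 58 and 55 reads in the left one, or 51.3%, and 49 and 35 in the right one, or 58.3% (47.1% to 69.0%). Of the 528 reads of that right Sox17 peak 15.9% were given to an allele. The list as a whole had 40.1%. Of the 4 Foxa2 peaks in mESC, 3 had 46.3% to 60.5%, and the other had 1 allelic read.

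**Figure D4:**
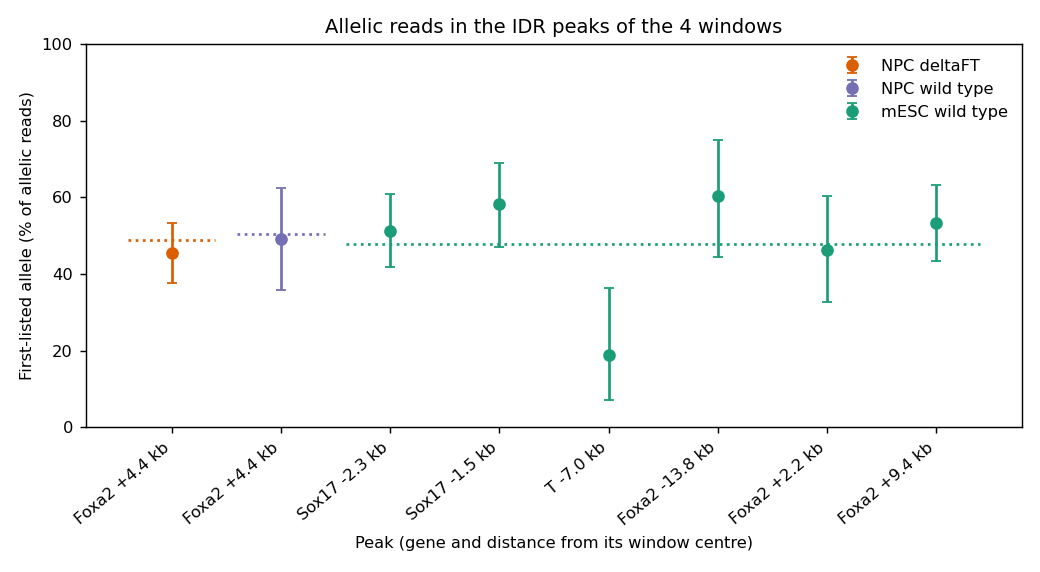
Share of allelic reads given to the first-listed allele at the 8 IDR peaks with at least 10 allelic reads, by line. Error bars are exact Clopper-Pearson 95% intervals and dotted lines mark the autosomal share of the list. The mESC T peak at -7.0 kb lies at 18.8%, and the 7 other intervals cover their list's line.

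In male TXY stem cells all 4 loci held peaks in every condition. TXY deltaRepA held 23 window peaks plus dox and 20 with no dox. TXY wild type held 23 plus dox and 25 with no dox. Among peaks with a −log10 q of at least 5, deltaRepA held 5 plus dox and 7 with no dox, and wild type 8 plus dox and 11 with no dox. Autosomes at that limit held 46057 and 44964 in deltaRepA and 42338 and 58279 in wild type, in the same order. By window, in the order Gata6, Sox17, T and Foxa2, there were 3, 7, 5 and 8 in deltaRepA plus dox and 2, 5, 5 and 8 in deltaRepA no dox. Wild type had 6, 5, 4 and 8 plus dox and 4, 6, 6 and 9 with no dox. Per 100 kb the windows held 9.2 and 8 peaks in deltaRepA plus dox and no dox, where autosomes held 5.80 and 5.24. In wild type they held 9.2 and 10, where autosomes held 5.14 and 5.69. Window peaks were of ordinary strength, with 15 of 23, 12 of 20, 11 of 23 and 15 of 25 above the autosomal median −log10 p in these 4 lists. At Gata6 each list held between 2 and 6 peaks, against 4.11 to 4.64 at the autosomal density, and so was not denser than autosomes in 3 of the 4 lists.

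Of 32 sites in any TXY list, 16 were in all 4, with 2 at Gata6, 4 at Sox17, 4 at T and 6 at Foxa2. Of these 16, 12 were also in a female mESC list and 6 in an NPC list. The highest −log10 p in the windows was 28.1, in deltaRepA no dox at the Foxa2 site 9.1 kb right of the centre, the 95.8th percentile of its list. There deltaRepA plus dox had 14.3, wild type plus dox 13.1 and wild type no dox 25.9. The Sox17 site 2.1 kb left of the centre had 21.4 in deltaRepA plus dox, 14.4 in deltaRepA no dox, 18.6 in wild type plus dox and 18.3 in wild type no dox. Further strong sites were at T, 28.1 kb left of its centre, with 7.11 and 6.65 in deltaRepA plus dox and no dox and 17.2 and 13.1 in wild type plus dox and no dox. Foxa2 2.2 kb right of the centre had 13.8 and 11.4 in deltaRepA and 18.3 and 13.3 in wild type, plus dox and no dox. Foxa2 13.9 kb left of the centre had 8.83 and 15.1 in deltaRepA and 13.4 and 13.9 in wild type. A T site 2.9 kb left of the centre was in all 4 TXY lists, with 7.02, 5.33, 10.7 and 10.3 in the same order, and in no female list. Since the lists were called separately, these values were not compared between them.

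**Figure D5:**
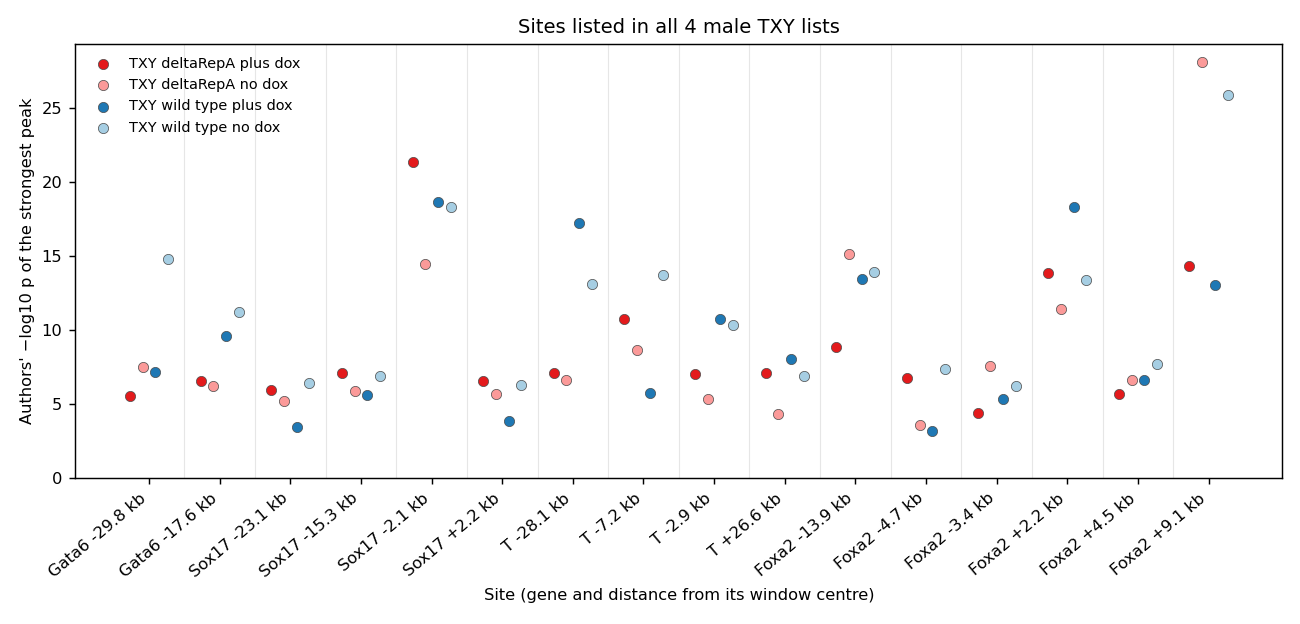
The authors' −log10 p of the strongest peak at the 16 sites in all 4 TXY lists, with sites on the x axis by gene and distance from the window centre and colours for genotype and dox. Values depend on depth and are not compared between lists. The Foxa2 site at +9.1 kb reaches 28.1 and the Sox17 site at -2.1 kb 21.4.

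Most window peaks of the TXY lists were found in both dox states. In deltaRepA, 18 of 20 no-dox peaks overlapped a plus-dox peak, or 90% (68.3% to 98.8%), against 68.7% of autosomal peaks. In wild type it was 18 of 25 no-dox peaks, or 72% (50.6% to 87.9%), against 62.1%. Of the plus-dox peaks, 20 of 23 were found without dox in deltaRepA, against 62.8% of autosomal peaks, and 17 of 23 in wild type, against 69.4%. Of the 4 autosomal shares, the one for deltaRepA plus-dox peaks lay outside the members' interval, which was 66.4% to 97.2%, and the others lay within. With an overlap of at least 50% of the shorter peak the members' share there was 78.3% (56.3% to 92.5%). The autosomal share of 62.8% was computed with 1 bp only, so it is not a like background for this value. These intervals treat neighbouring peaks of a list as independent, so a share outside 1 of several such intervals is not a test result. Split peaks count more than once. At Sox17 the deltaRepA plus-dox peaks chr1:4469224-4469423 and chr1:4469620-4470124 overlapped the same no-dox peak, chr1:4469385-4470158.

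Between genotypes, 18 of 23 deltaRepA plus-dox peaks were found in wild type plus dox, against 56.8% of autosomal peaks, and 18 of 23 wild-type plus-dox peaks in deltaRepA plus dox, against 63.4%. Without dox it was 16 of 20 deltaRepA peaks in wild type, against 66.2%, and 18 of 25 wild-type peaks in deltaRepA, against 60.4%. In all 4 the autosomal share lay within the members' interval, the narrowest of which was 56.3% to 92.5%. The same assumption of independent peaks holds for these intervals, and no test was made. All 9 wild-type no-dox peaks of the Foxa2 window were found with dox. In the Gata6 window 2 of 6 wild-type plus-dox peaks were found without dox, and 3 of the 4 that were not had a −log10 p of 2.78.

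The female mESC peaks all overlapped peaks of the full male stem cell lists. Each of the 7 overlapped a peak in every TXY list, 7 of 7 (exact interval 59.0% to 100%) against 95.5% of autosomal mESC peaks in deltaRepA plus dox and 95.1% in deltaRepA no dox. In wild type plus dox and no dox these shares were 94.0% and 96.4%, so the members' 7 of 7 is near the share of any mESC peak. Against TXY peaks with −log10 q of at least 5, the members' share was 85.7% in deltaRepA plus dox and 100% in deltaRepA no dox. It was 71.4% in wild type plus dox and 85.7% in wild type no dox. The autosomal share at that limit was not analysed here. The NPC IDR peaks at Foxa2 and Gata6 also overlapped a peak in each TXY list. The share of all autosomal NPC peaks that did so was not analysed here, so this has no background to be set against.

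Some peaks lay close to the edges of the T window. Just outside, NPC deltaFT had a peak 0.516 kb left of the T window with 101 reads and one 1.646 kb right of it with 152 reads, and mESC had one 1.648 kb right of it with 61 reads. Inside, the mESC T peak lay 22.8 kb from the nearer edge. At Foxa2 the nearest NPC deltaFT peak outside was 8.106 kb to the right with 83 reads. In TXY deltaRepA no dox the T peak chr17:8659588-8660013 straddled the right edge and was counted. At Gata6 and Sox17 no IDR peak outside the window lay within 10 kb of its edge.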

How the data were processed

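Open chromatin was measured by ATAC-seq in 7 samples, 1 per group, from 50K cells per replicate with paired reads of 75 bp, per the labels. Per the submitters' processing notes, the authors used cutadapt, Bowtie2, MACS2 and build mm9. The sources used here do not give versions, settings, duplicate handling or whether reads were shifted to Tn5 insertion sites. The authors deposited IDR lists with a raw read count per peak and a count per allele. They also deposited 6 library lists and 4 TXY lists, with a fold enrichment ratio and −log10 p and q values. The −log10 p and q values were used to rank or filter peaks within a list. Values of several lists, and peak numbers at a fixed −log10 q, are also printed side by side. Lists differ in depth, so differences between lists in these were not tested. The deposited IDR lists also give an IDR per peak and a value per library, which was found among the −log10 p of that library list for 91.1% to 94.6% of peaks and was read as such.

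Peaks were taken by overlap of at least 1 bp with the 4 windows. Coordinates are 1-based. Reads were scaled to 1000000 reads in autosomal IDR peaks (RPM). Peaks of both NPC lines were matched by largest overlap. For allele shares a peak needed at least 10 allelic reads. Intervals are exact 95% Poisson or Clopper-Pearson intervals for counting error. Those on numbers of peaks treat neighbouring peaks of a list as independent, and those on reads take each read as a separate molecule. With 1 sample per group no p-value was computed. Shares over all peaks of the 19 autosomes are the background. Every IDR peak in the windows and the strongest TXY peaks of each window were named by rule. Markers and start sites needed mm9 gene positions and were not analysed here. The members and lists were chosen with earlier results of these data known. Alternatives were other window edges, thresholds, overlaps, scalings and single libraries. Steps were tested on simulated data. The tools were python 3.11.15, scipy 1.17.1, pandas 2.3.3, numpy 2.4.6 and matplotlib 3.10.9.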

Additional observations from a re-analysis of the deposited data

Results flagged for a closer look

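The number of window peaks moved in opposite directions with dox in the 2 TXY genotypes. With dox minus without, it was 3 in TXY deltaRepA, with 23 peaks plus dox and 20 with no dox. It was -2 in TXY wild type, with 23 peaks plus dox and 25 with no dox. Each condition is 1 merged list, so the difference was not tested. The autosomal list sizes moved the same way, by 10.7% in deltaRepA and -9.76% in wild type, and the window counts by 15% and -8%. Among peaks with −log10 q of at least 5, both genotypes had fewer window peaks with dox, 5 plus dox and 7 with no dox in deltaRepA and 8 plus dox and 11 with no dox in wild type. Over all autosomes at this limit deltaRepA held 46057 peaks plus dox and 44964 with no dox, and wild type 42338 and 58279. The autosomal number was thus also lower with dox in wild type, but not in deltaRepA.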

How the results depend on the processing

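Single library lists in place of the IDR list gave 9 and 9 window peaks in NPC deltaFT, 5 and 10 in NPC wild type and 19 and 14 in mESC. Library peaks with −log10 q of at least 5 gave 3 and 3 in NPC deltaFT, where the IDR list had 1. Windows widened by 10 kb gave 4 NPC deltaFT peaks, and a log2 ratio of window reads in NPC deltaFT over NPC wild type of 2.03 in place of 0.99. Scaling to the median of peaks in all 3 lists gave -3.70 for NPC wild type over mESC in place of -3.96. Reads per bp gave a log2 ratio of 0.19 in place of 1.59 at the matched Foxa2 peak. Searching the IDR list of the other line alone, 2 NPC wild-type peaks lacked a mESC peak and 1 lacked an NPC deltaFT peak. With an overlap of at least 50% of the shorter peak these counts were 1 and 1. Under either of these settings 7 mESC peaks lacked an NPC wild-type peak, in place of 6. No NPC wild-type peak matched a mESC peak, so that ratio gave no value under any alternative. With at least 40 allelic reads, 0 mESC peaks left out the autosomal allele share, since the T peak has 32. TXY peaks with −log10 q of at least 5 numbered 5 in deltaRepA plus dox and 7 with no dox, and 8 in wild type plus dox and 11 with no dox. The difference between dox states in deltaRepA therefore turned round at this limit, since all peaks numbered 23 plus dox and 20 with no dox. Over autosomes at this limit deltaRepA held 46057 plus dox and 44964 with no dox, and wild type 42338 and 58279. Of the strong window peaks 100% were found in the other dox state of the same genotype, and 100% in the other genotype at the same dox state, where 89.6% to 98.7% of autosomal peaks of that strength were. No paired analysis was possible because each group is 1 sample. The total depth of the libraries was not analysed here, and no list was matched for depth.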
